A study of Mus musculus with 6 samples.

Results

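CatSper is the calcium channel of the sperm flagellum, and SLO3, encoded by Kcnu1, is the sperm potassium channel. The transcripts described here are those of 10 genes of these channels, chosen by gene symbol, ignoring case, from the deposited tail table. The genes are Catsper1, Catsper2, Catsper3, Catsper4, Catsperb, Catsperd, Catsperg1, Catsperz, Kcnu1 and Lrrc52. All 10 genes were found, with 22 of the 11517 annotated transcripts among 12114 contigs, and 14 of the 22 had enough reads for a test of tail length and 14 for a test of counts.

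CATSPER1 to CATSPER4 form the pore together, and the auxiliary subunits, among them CATSPERB, CATSPERD, CATSPERG1 and CATSPERZ, sit around it. CatSper admits calcium during hyperactivation, the vigorous beat that sperm need to reach and fertilize the egg, and SLO3 with its auxiliary subunit LRRC52 carries the potassium current that sets the sperm membrane potential. Both channels act in mature sperm, after transcription has stopped in the germ cell.

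Native RNA was sequenced from pachytene and diplotene (P/D) spermatocytes, the late meiotic cells, and from round spermatids (RS), the haploid cells that follow them. Both were sorted from testes of adult C57BL/6J/B6 males, as 3 samples per cell type that each pooled the mRNA of 3 mice, and no sample carried a mutation or a treatment. By the paper's microscopy the P/D sort was far less pure than the RS sort. P/D values here therefore also hold the RNA of many other cells. The 3 P/D samples formed 1 multiplexed sequencing library and the 3 RS samples another, so cell type and library cannot be told apart in any comparison here. In sorted cells, fewer cells of a type and less RNA per cell cannot be told apart either.

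The samples held between 244004 and 474688 reads, of which between 502 and 1199 belonged to these genes. The share was 0.200% ± 0.0058 in P/D and 0.256% ± 0.0035 in RS (mean ± SD, n = 3 each). P/D spermatocyte markers took 1.29 to 1.40% of reads in P/D and 0.958 to 1.01% in RS, and round spermatid markers took 0.0686 to 0.0896% in P/D and 0.225 to 0.235% in RS. Markers of elongating spermatids, all 6 of 6 found, took 0.163 to 0.216% in P/D and 2.09 to 2.58% in RS. The paper places the transcription of these 6 genes in round spermatids and their translation later. Their reads therefore do not tell elongating cells from round ones. Markers of spermatogonia, Sertoli cells, Leydig cells and macrophages gave at most 7 reads in any sample, and the macrophage markers were at 0 in all 6.

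The poly(A) tail is added downstream of a signal hexamer near the end of the transcript, so the annotated 3′ ends are shown for the most-read transcript of each gene except Catsper3. Where the sequenced reads themselves ended was not examined. They run 5′ to 3′ from the hexamer, in capitals, for up to 30 bases, as the GENCODE vM21 transcripts have them, with positions on GRCm38.
Catsper1, chr19:5344262-5344280, plus strand: AATAGAgtttttaaaaccc
Catsper2, chr2:121394355-121394373, minus strand: AATAAAtactgctaatgaa
Catsper3, the second transcript, chr13:55808968-55808997, plus strand: ATTAAAcacaagcctccaggggtggtttct
Catsper4, chr4:134211970-134211991, minus strand: AATAAActtttgtgttataacc
Catsperb, chr12:101625995-101626009, plus strand: TATAAAgtgataacc
Catsperd, chr17:56664437-56664456, plus strand: AATAAAttgttaaccgtgaa
Catsperg1, chr7:29181532-29181555, minus strand: AATAAAgcctccttgcagaatcag
Catsperz, chr19:6922423-6922449, minus strand: ATTAAAgagtctatgcatggtcccaga
Kcnu1, chr8:25937909-25937938, plus strand: AATAAAgatgcccatgataaatggtactaa
Lrrc52, chr1:167445669-167445693, minus strand: AATAAAatatttggtggttatttca
The hexamers searched on the transcript strand, in the last 40 bases, were AATAAA, then ATTAAA, then whichever of 10 variants lay nearest the end (AATATA or AATAGA or AGTAAA or TATAAA or CATAAA or GATAAA or AATACA or ACTAAA or AAGAAA or AATGAA), and these words can overlap. AATAAA stood in 6 of the 10 ends shown. Of 6901 tested transcripts with a sequence, 61.5% had AATAAA, 14.1% ATTAAA, 12.4% another of these words and 12.1% none. The most-read Catsper3 transcript had none and is annotated to end just before the ATTAAA of the second one. A match describes the letters only.

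Accumulation is given as CPM, counts scaled to the size and composition of each library, and changes as log2 fold changes of RS over P/D from edgeR. Of the 14 member transcripts tested, 8 were higher in RS and 1 was lower, where 32.6% of all 6005 transcripts tested were higher and 30.8% lower. The median log2 fold change of the 14 was 0.92, against -0.03 over all transcripts. Of the members called higher, all but Catsper2 had at most 7 reads in each P/D sample. They passed the count filter through RS, the cell type where they are high. Member transcripts below the filter, some with more reads in RS and some with fewer, are not in these counts. The counts therefore depend on what the filter admitted. The pore genes other than Catsper2 and the potassium channel genes rose most, while Catsperz, Catsperd and Catsper2 had many reads in both cell types.

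**Figure D1:**
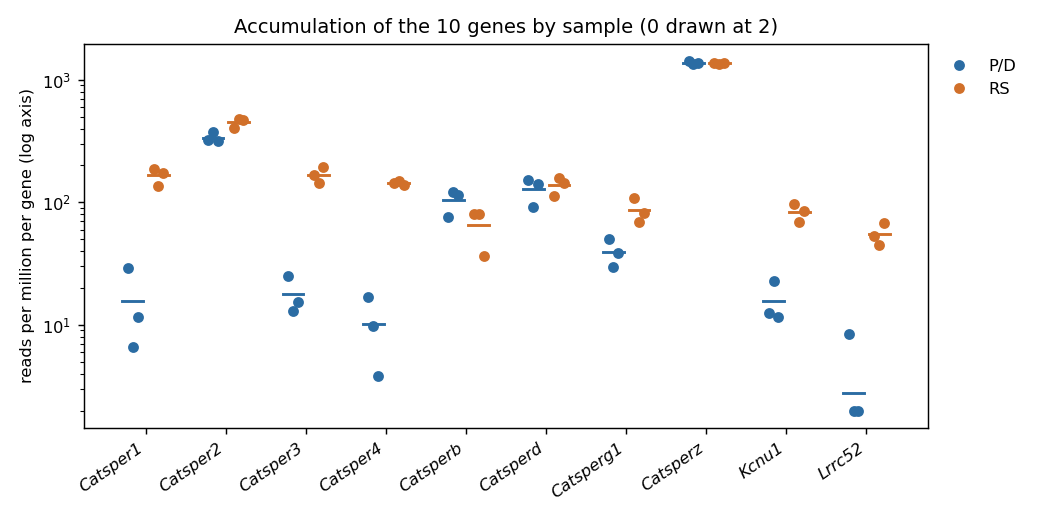
CPM of each gene, its transcripts summed, in the 3 P/D and 3 RS samples, on a log axis, with a point per sample and a line at each mean; a value of 0 is drawn at 2. The P/D and RS points of Catsper1, Catsper3, Catsper4, Kcnu1 and Lrrc52 lie far apart, and those of Catsperz coincide.

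Catsper1, the pore subunit first linked to sperm calcium entry, was covered by 7, 2 and 3 P/D reads in the 3 replicates and by 56, 61 and 57 RS reads. Every RS sample was far above every P/D sample. Its level went from 16.7 ± 12.5 CPM to 173 ± 26.3 CPM (SD, n = 3 each). This was a log2 fold change of 3.40 ± 0.35 (SE, edgeR adjusted p = 2.62e-11).

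Catsper3, another pore subunit, was read from 2 transcripts with ends 31 bases apart. The first had 5, 3 and 1 reads in P/D and 37, 36 and 41 in RS, and the second had 1, 1 and 3 in P/D and 13, 28 and 23 in RS. The groups did not overlap for either. Their log2 fold changes were 3.19 ± 0.41 and 3.16 ± 0.49 (SE, edgeR adjusted p = 7.34e-09 and 4.02e-07).

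Catsper4, also a pore subunit, had 3, 3 and 1 reads in P/D and 30, 53 and 37 in RS. Its log2 fold change was 3.60 ± 0.40 (SE, edgeR adjusted p = 3.41e-10). A shorter transcript of 9 exons had 1 read in all P/D samples and 35 in RS, a ratio of 25.8 in CPM with an exact 95% counting interval of 4.34 to 1049, and it was below the count filter. That interval covers counting error only.

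Catsper2, the remaining pore subunit, already had many reads in P/D. Its main transcript had 62, 96 and 75 reads in P/D and 104, 188 and 138 in RS, which came to 304 ± 30.1 CPM and 413 ± 47.5 CPM. The lowest RS sample, at 358 CPM, was above the highest P/D sample, at 333 CPM. The log2 fold change of 0.44 ± 0.15 (SE) passed the test (edgeR adjusted p = 0.00986), and without P/D replicate 1 it was 0.33 and did not (adjusted p = 0.0955). Its other transcript, annotated as a target of nonsense-mediated decay, had 40 reads in P/D and 60 in RS, with a log2 fold change of 0.15 ± 0.32 (SE, adjusted p = 0.711).

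Catsperz, an auxiliary subunit that keeps the channel's rows along the flagellum continuous, had 309, 363 and 322 reads in P/D and 381, 553 and 425 in RS. Its level was 1311 ± 50.6 CPM in P/D and 1322 ± 32.0 CPM in RS, and the samples of the cell types overlapped. The log2 fold change was 0.01 ± 0.10 (SE, edgeR adjusted p = 0.923). Its transcript with a retained intron had 14, 12 and 15 reads in P/D and 7, 6 and 6 in RS, without overlap in CPM, and fell by 1.53 ± 0.37 on the log2 scale (SE, adjusted p = 0.000465), the only member called lower. Another retained-intron transcript had 3, 15 and 2 reads in P/D and 2, 2 and 1 in RS and was not tested, and 15 of its 20 P/D reads came from 1 sample.

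Catsperd, an auxiliary subunit needed for a stable channel, had 30, 24 and 35 reads in P/D and 29, 52 and 37 in RS. The samples overlapped, and the log2 fold change was -0.04 ± 0.24 (SE, edgeR adjusted p = 0.886). Catsperb, which encodes a large transmembrane subunit, had 10, 26 and 24 reads in P/D and 18, 29 and 9 in RS, with overlap and a log2 fold change of -0.54 ± 0.32 (SE, adjusted p = 0.138). Summed with its decay-annotated transcript, Catsperb was lower in RS by the test, at -0.65 ± 0.27 (adjusted p = 0.0278), as was the main transcript without P/D replicate 1, at -0.83 (adjusted p = 0.0264).

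Catsperg1, a further auxiliary subunit, had 7, 6 and 4 reads in P/D and 20, 19 and 16 in RS. All RS samples were above all P/D samples, with a log2 fold change of 1.25 ± 0.38 (SE, edgeR adjusted p = 0.00425). Catsperg1 has a close copy, Catsperg2, and reads of the pair may have been split between them. Catsperg2 had 70 reads in P/D and 108 in RS, with a log2 fold change of 0.19 ± 0.24 (SE, adjusted p = 0.509).

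Kcnu1, the pore of the potassium channel, had 3, 7 and 3 reads in P/D and 27, 29 and 24 in RS. The groups were apart, with a log2 fold change of 2.17 ± 0.38 (SE, edgeR adjusted p = 4.36e-06). A short Kcnu1 transcript of 8 exons had no read in P/D and 8 in RS. Lrrc52, its auxiliary subunit, had 2, 0 and 0 reads in P/D and 16, 20 and 22 in RS, a ratio of 21.4 in CPM with an exact 95% counting interval of 5.67 to 181. The test called it higher (edgeR adjusted p = 1.18e-07). The genes listed as elongating spermatid markers were also higher in every RS sample than in every P/D sample, as given above. Since round spermatids transcribe them too, they do not measure elongating cells, whose part in these rises was not tested.

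Tail lengths are means over the reads of a transcript in a sample, compared with limma. Of 14 member transcripts tested, 8 had longer tails in RS and none had shorter ones, where 54.2% of all 6990 transcripts tested were longer and 1.69% shorter. The median difference of the 14 was 31.4 nt, against 37.4 nt over all, and 13 of 14 were positive. The single negative difference, that of the second Catsperd transcript, was -19.5 ± 44.0 nt (SE, limma adjusted p = 0.732). The share of reads with tails of 120 to 210 nt, the class around 150 nt, was higher in RS for 7 of the 14 and lower for 0, where 53.0% of all transcripts were higher and 2.37% lower. In neither measure did a member lower in RS reach an unadjusted p of 0.05 in limma. A shared spread was used for all transcripts, although the median spread between replicates was 19.4 nt for transcripts of up to 15 reads per sample and 3.36 nt for those above 150. The test is therefore too lenient for members with few reads and too strict for those with many. Fits that let the spread follow the reads called 8 (weights) and 9 (trend) members longer. No share over all transcripts is given for these fits, so their counts stand without a background. Weights lost Catsperg1 and gained the second Catsper2 transcript, and the trend gained the latter.

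**Figure D2:**
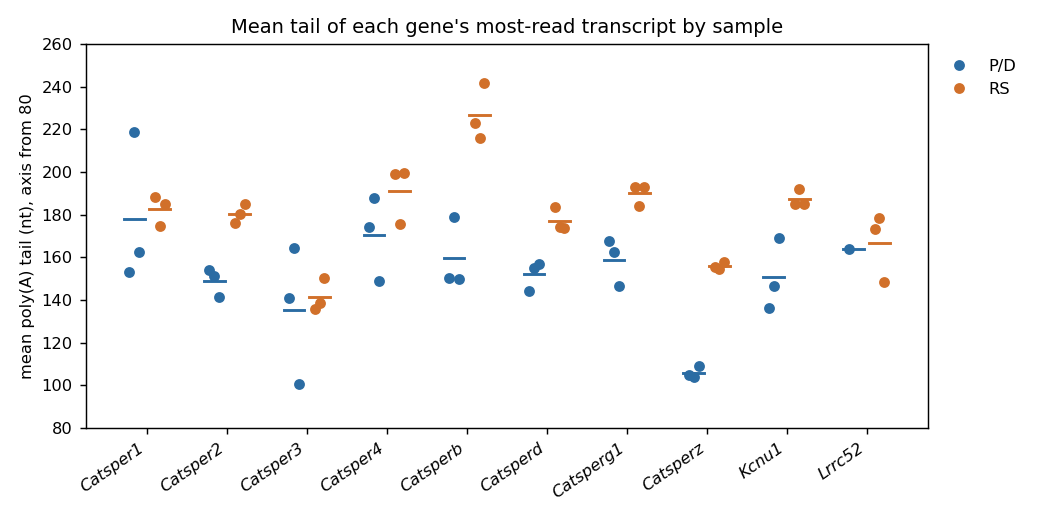
Mean poly(A) tail in nt of each gene's most-read transcript in the 3 P/D and 3 RS samples, with a point per sample and a line at each mean; the axis starts at 80 nt. Catsperz moved from near 106 to near 156 nt, most other genes were near 150 nt already in P/D, and Catsperb in RS lies above all others except the P/D sample of Catsper1 that held 2 reads.

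The best-measured change was that of Catsperz. Its mean tail was 105, 104 and 109 nt in P/D and 155, 154 and 158 nt in RS, with no overlap, and the difference was 50.03 ± 5.28 nt (SE, limma adjusted p = 0.000641). The share of its reads with tails in the class around 150 nt was 30.1, 25.3 and 29.8% in P/D and 75.6, 77.2 and 76.9% in RS, a difference of 48.2 ± 4.16 points (SE, adjusted p = 0.000496). The shorter class, from 30 to 120 nt, held 63.7% of Catsperz reads in P/D and 16.3% in RS. Thus the tails of Catsperz lengthened while its level differed by less than the spread between samples.

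Both other Catsperz transcripts with enough reads for the test were also longer in RS. The second coding transcript had tails of 102 ± 12.5 nt in P/D and 150.4 ± 9.71 nt in RS, a difference of 48.2 ± 8.95 nt (SE, limma adjusted p = 0.00476). The retained-intron transcript that fell in counts had tails of 115, 91.8 and 79.7 nt in P/D and 177, 133 and 135 nt in RS. Its difference was 52.5 ± 15.2 nt (SE, adjusted p = 0.0264), and without RS replicate 1, the highest, it was 38.2 nt and missed the threshold (adjusted p = 0.0501). It missed it too without P/D replicate 2 or 3 (adjusted p = 0.0627 and 0.0695). The remaining Catsperz transcripts were not tested: the other one with a retained intron had 185 ± 25.3 nt in P/D and 130.4 ± 30.9 nt in RS, on 20 and 5 reads, and a noncoding one had 104 ± 57.3 nt and 172.4 ± 24.9 nt, on 12 reads each.

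Most other members started from longer tails in P/D. Catsper2 had mean tails of 154, 151 and 141 nt in P/D and 176, 180.2 and 185 nt in RS, and the groups did not overlap. The difference was 31.6 ± 6.28 nt (SE, limma adjusted p = 0.00631). Among all 6990 transcripts its P/D tail was longer than 82.9% and its RS tail longer than 89%, where those of Catsperz were longer than 35.4% and 44.2%. The share of Catsper2 reads in the class around 150 nt rose from 55.8 ± 7.0% to 79.2 ± 3.32% (limma adjusted p = 0.0117), with the upper bound at 210 nt; with that bound at 180 nt the difference was 4.78 points and was not called. The decay-annotated Catsper2 transcript had tails of 139 ± 28.9 nt in P/D and 178 ± 6.71 nt in RS, a difference of 38.4 ± 14.8 nt (SE, adjusted p = 0.0677), which passed with weights (29.5 nt, adjusted p = 0.0353) and with the trend (adjusted p = 0.0447).

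Catsperd had mean tails of 144, 155 and 157 nt in P/D and 184, 174 and 174 nt in RS, again without overlap. Its difference was 25.2 ± 6.54 nt (SE, limma adjusted p = 0.0179), and without RS replicate 1 it was 21.9 nt (adjusted p = 0.0629). The share of its reads in the class around 150 nt rose in every sample, from 30.6 ± 2.44% to 64.1 ± 1.78% (adjusted p = 0.00119). Catsperd also kept many long tails in both cell types, with 24.0 ± 4.69% of P/D reads and 20.8 ± 2.93% of RS reads at 210 nt or longer, where all reads together had 6.12 to 6.83% in P/D and 9.24 to 10.8% in RS.

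**Figure D3:**
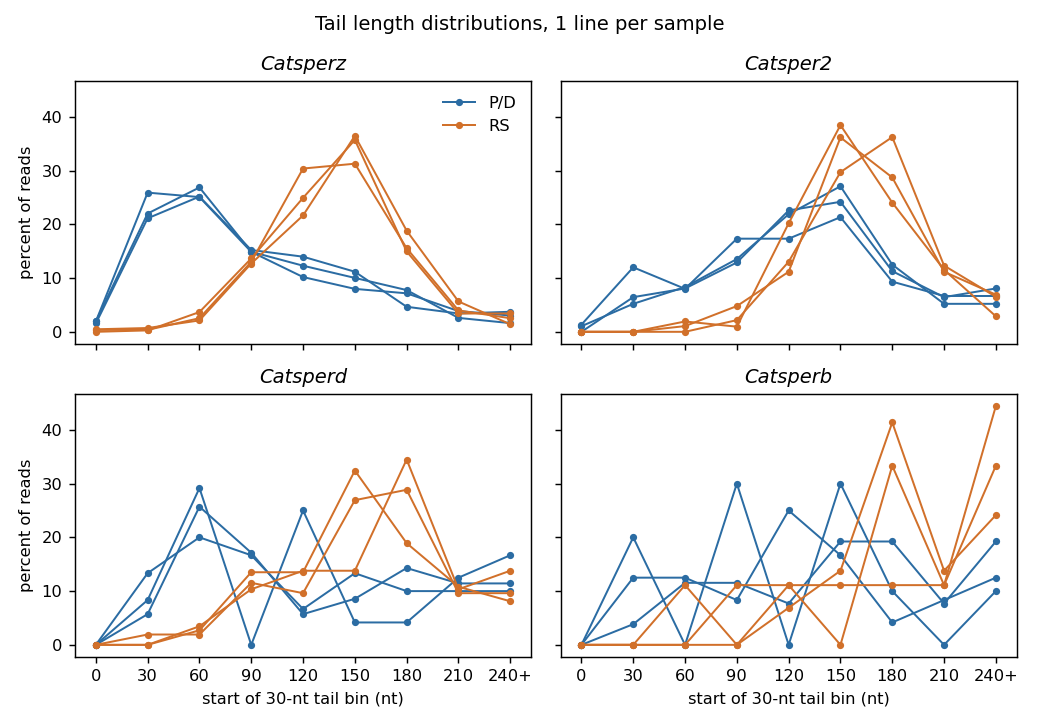
Percent of reads in tail bins of 30 nt, the last holding all tails of 240 nt or longer, for the main transcripts of Catsperz, Catsper2, Catsperd and Catsperb, with a line for each of 3 P/D and 3 RS samples. The P/D lines of Catsperz peak at short tails and its RS lines near 150 nt, while the RS lines of Catsperb, which rest on 9 to 29 reads each, are high in the last bin.

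Catsperb had the longest tails in RS of the members tested, and its groups were apart. Its mean tail was 150.2, 179 and 149.8 nt in P/D and 223, 216 and 242 nt in RS, from 10, 26 and 24 and 18, 29 and 9 reads. The difference was 67.4 ± 11.1 nt (SE, limma adjusted p = 0.00293), and its RS tail was longer than 99.6% of all transcripts tested. The class around 150 nt did not show this, at 44.0 ± 3.46% in P/D and 46.6 ± 14.5% in RS (adjusted p = 0.809). Tails of 210 nt or longer were 10%, 26.9% and 20.8% of its reads in P/D and 55.6, 37.9 and 44.4% in RS. Its decay-annotated transcript, not tested, had tails of 162 ± 25.8 nt in P/D and 220 ± 31.3 nt in RS.

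Catsperg1 had mean tails of 168, 163 and 146 nt in P/D and 193, 184 and 193 nt in RS, without overlap, on 17 reads in all P/D samples. The difference was 31.2 ± 7.61 nt (SE, limma adjusted p = 0.014), and with each mean weighted by its reads it was 29.1 nt and missed the threshold (adjusted p = 0.0713). Pooled over its 3 transcripts the difference was -11.8 nt and was not called (adjusted p = 0.425). Pooling adds a second coding transcript, with P/D means of 278, 120.4 and 187 nt on 5, 2 and 3 reads, and a retained-intron transcript with 4 P/D reads, whose P/D means were 424 and 368 nt in the 2 samples that held it.

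Kcnu1 had mean tails of 136, 146 and 169 nt in P/D and 185, 192 and 185 nt in RS, without overlap, on 13 P/D reads in all. The difference was 36.8 ± 9.45 nt (SE, limma adjusted p = 0.017), and without RS replicate 2 it was 34.6 nt (adjusted p = 0.051). None of its P/D reads had a tail of 210 nt or longer, against 28.6 ± 3.16% in RS.

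For Catsper1, Catsper3 and Catsper4 no tail difference passed the test with the P/D reads at hand. Catsper1 had 178 ± 35.5 nt in P/D and 183 ± 6.98 nt in RS, a difference of 4.52 ± 17.7 nt (SE, limma adjusted p = 0.845), and its P/D mean of 219 nt in replicate 2 rested on 2 reads. Without that sample the difference was 24.9 nt and passed (adjusted p = 0.0335). The 2 Catsper3 transcripts differed by 6.14 ± 16.3 and 22.4 ± 11.8 nt (SE, limma adjusted p = 0.772 and 0.157). The second passed without P/D replicate 1, at 33.2 nt (limma adjusted p = 0.0293). That replicate held 1 read of 149 nt, and the P/D means that remained, 107 and 126 nt, rested on 1 and 3 reads. Catsper4 went from 170.4 ± 19.7 nt to 191 ± 13.5 nt, a difference of 20.9 ± 12.2 nt (SE, adjusted p = 0.196). Lrrc52 had reads in only 1 P/D sample, with a mean of 164 nt, and 173, 178 and 149 nt in RS.

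In RS, where all these genes had reads, the genes were ordered by the mean tail of their most-read transcript. Catsper3 was the shortest, at 142 ± 7.89 nt and below all RS samples of Catsperz. Then came Catsperz, Lrrc52, Catsperd, Catsper2, Catsper1, Kcnu1, Catsperg1, Catsper4 and Catsperb at 227 ± 13.1 nt. The second Catsper3 transcript had 142.8, 160.2 and 146.2 nt in RS and overlapped Catsperz. The RS samples of Catsperz, at 154 to 158 nt, lay below all those of Catsperd, at 174 to 184 nt. From Lrrc52 to Catsper4, each gene's samples overlapped those of its neighbour in the order, and those of Catsperb lay above all of Catsper4.

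**Figure D4:**
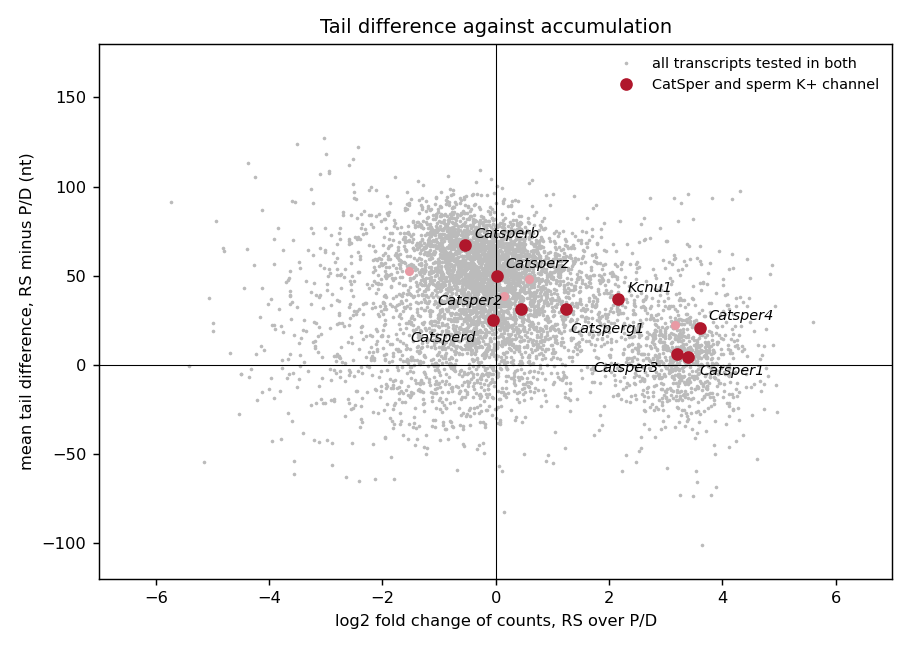
Difference in mean tail, RS minus P/D in nt, against log2 fold change of counts for 5916 transcripts tested for both (grey), with 13 member transcripts in red, dark for the most-read one of each gene; 2 transcripts lie outside the axes. Catsper1, Catsper3 and Catsper4 lie at log2 fold changes above 3, at tail differences of 4.52 to 22.4 nt.

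The tail differences were also set beside the changes in counts. Of the 5916 transcripts tested for both, 1036 were called higher in RS with a log2 fold change of at least 2, and 5 of them were members (Catsper1, both Catsper3 transcripts, Catsper4 and Kcnu1). The 1036 had a median tail of 155 nt in P/D and 164 nt in RS, and 13.2% of them had longer tails by the test. The other 4880, 8 members among them, had a median of 110 nt in P/D and 158 nt in RS, and 67.1% had longer tails. Of the 5 member transcripts that rose strongly 1 was called longer, and of the other 8 member transcripts 7 were. These are counts of transcripts rather than genes. The 5 include both Catsper3 transcripts, and the 8 include several of Catsperz and both of Catsper2. The tail differences of these members overlapped, at 4.52 to 36.8 nt for the 5 and 25.2 to 67.4 nt for the 8. Transcripts that rose have fewer P/D reads, and the part this plays in the share called was not tested.

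The transcript tails most like those of Catsperz were those of Cct7, 1700123L14Rik, Ddx25, Ldhc and 1700019A02Rik. Likeness was the root mean square difference in the percent of reads per 30-nt bin over the 6 samples, among transcripts with at least 50 reads in each. It was 2.34 percentage points for Cct7 and 2.71 for 1700019A02Rik, against a median of 5.97 over all compared. Cct7, a chaperonin subunit, had tails of 106 nt in P/D and 159 nt in RS.

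Further CatSper subunits and partners were taken from a list of 10 genes, of which 9 had transcripts. Of 10 transcripts tested for tails 7 were longer and 1 shorter in RS, and of 8 tested for counts 3 were higher and 1 lower. Over all transcripts tested, 54.2% were longer, 1.69% shorter, 32.6% higher and 30.8% lower. In the class around 150 nt, 4 of the 10 were higher in RS and 1 was lower, against 53.0% and 2.37% of all transcripts. Efcab9, the calcium sensor of the channel, rose from 48 reads to 583, a log2 fold change of 3.16 ± 0.21 (SE, edgeR adjusted p = 5.47e-17), with tails of 156 ± 6.65 nt in P/D and 154 ± 2.77 nt in RS (limma adjusted p = 0.803). Tmem262, another CatSper subunit gene, rose by a log2 fold change of 3.82 ± 0.48 (SE, adjusted p = 5.55e-09). Catspere1, whose transcript here is annotated as an unprocessed pseudogene, had 54 reads in P/D and 17 in RS. It fell by 2.08 ± 0.36 on the log2 scale (SE, adjusted p = 3.19e-06), and its tails shortened from 165 ± 13.3 to 138 ± 9.20 nt (limma adjusted p = 0.0435). Catsperg2 resembled Catsperb in its long RS tails, from 155 ± 4.81 nt to 218 ± 4.52 nt (limma adjusted p = 0.000513), with 48.3 ± 6.70% of RS reads at 210 nt or longer. C2cd6, a protein of the CatSper complex, lengthened by 62.2 ± 6.60 and 51.5 ± 5.82 nt in 2 transcripts (SE, adjusted p = 0.000641 and 0.000749).

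Of 8 listed genes of sperm ion transport and pH, 5 had transcripts. They gave 5 transcripts tested for tails, 2 of them longer in RS against 54.2% of all transcripts, and 4 tested for counts, 1 of them higher against 32.6%. The one that rose was Atp1a4, the sperm sodium pump subunit, with 17 reads in P/D, 334 in RS and a log2 fold change of 3.83 ± 0.26 (SE, edgeR adjusted p = 3.42e-16). Slc9b1, a sodium and proton exchanger, and the most-read transcript of Slc26a8, an anion transporter, lengthened by 46.7 ± 10.01 and 49.7 ± 6.53 nt (SE, limma adjusted p = 0.00844 and 0.00122). Another Slc26a8 transcript that was tested differed by 27.2 ± 24.9 nt and was not called (SE, limma adjusted p = 0.394). Slc9c1, the sperm sodium and proton exchanger, differed by 23.6 ± 9.54 nt (adjusted p = 0.0793). In the class around 150 nt all 5 transcripts, including the Slc26a8 transcripts tested, were called higher in RS, against 53.0% of all transcripts.

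All 9 listed genes of capacitation and calcium signalling had transcripts. They gave 15 transcripts tested for tails, 6 of them longer in RS against 54.2% of all transcripts. For counts 11 were tested, 7 higher against 32.6% and 2 lower against 30.8%. In the class around 150 nt, 5 of the 15 were higher in RS, against 53.0% of all transcripts. Cabs1, a calcium-binding protein of spermatids, rose by a log2 fold change of 3.69 ± 0.31 (SE, edgeR adjusted p = 1.56e-13), and Abhd2, a lipid hydrolase, by 2.03 ± 0.35 (SE, adjusted p = 3.23e-06). The lower pair was Prkaca, the catalytic subunit of protein kinase A, which fell by 1.08 ± 0.34 on the log2 scale (SE, adjusted p = 0.00572), and Ppp3r2, the testis calcineurin subunit, which fell by 0.34 ± 0.10 (SE, adjusted p = 0.00276). Ppp3r2 lengthened from 106 ± 1.66 nt to 167 ± 1.63 nt (limma adjusted p = 0.00049).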

How the data were processed

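The authors sequenced native poly(A) RNA on nanopore R9 chips, demultiplexed 3 barcoded extracts per library, aligned reads with minimap2 (2.20-r1061 in the submitters' processing notes) to GENCODE transcripts of GRCm38 and estimated tails with Nanopolish. They deposited unnormalized read counts per contig and, as an other kind of table (unit nt), a tail estimate for every read. Annotation here is GENCODE vM21. Repeat contigs (597) were left out of tests. No read lay on more than 1 member contig, and 3 of 4574 member reads also lay on another contig.

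Tails and tail classes were tested with limma 3.58.1 (lmFit, eBayes) and counts with edgeR 4.0.16 (TMM, filterByExpr, quasi-likelihood), in R 4.3.3, over all annotated transcripts, with Benjamini-Hochberg adjusted p-values and a threshold of 0.05. Tail tests needed at least 10 reads in 2 replicates of 1 cell type and a mean in 2 of each. The functions were tested on simulated data, which showed that 1 spread shared by all transcripts makes limma too lenient at few reads and too strict at many. The fit was kept as designed, and a fit with the spread trended on reads, and weights for the tail classes, were added after seeing the data. DESeq2 1.42.0 was an alternative. The members and gene lists were chosen with earlier results of these data known. Named genes were all members, the listed genes and the 5 transcripts most like Catsperz. Replicates are pools of 3 mice.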

Additional observations from a re-analysis of the deposited data

How the results depend on the processing

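Among the member transcripts, the counts of calls kept to within 1.5 times the values given in the report under every alternative but the following. Pooling reads per gene left 5 of 9 genes with longer tails in RS, where 54.9% of all 5365 genes tested were longer. No share over all transcripts is given for the alternatives that follow, so their counts stand without a background. With no read minimum 1 of 19 transcripts was shorter. With at least 10 counts in every sample only 3 members could be tested, 1 higher and 0 lower, and with no filter on counts 3 of 22 were lower. With bounds of 120 and 180 nt the class around 150 nt rose for 2 members. Leaving out 1 replicate in turn gave 1 to 2 members lower in counts, 4 to 7 higher in the class (4 without RS replicate 2) and 0 to 1 lower in it. The cause was not tested.

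Signs turned only for results that were not called, apart from Catsperg1. Its tail difference was -11.8 nt with reads pooled over its 3 transcripts. The first Catsper3 transcript differed by -2.51 nt with weights and by -11.2 to 20.6 nt without 1 replicate. Catsper1 differed by -12.9 nt with medians and by -7.92 to 24.9 nt without 1 replicate. The second Catsperd transcript differed by 9.63 nt over tails of 10 to 300 nt and by -63.0 to 28.9 nt without 1 replicate. The log2 fold change of Catsperz was -0.038 with no filter, -0.0022 summed per gene and -0.0095 to 0.078 without 1 replicate. That of Catsperd was 0.012 with RLE factors, 0.15 with at least 10 counts in every sample, 0.15 summed per gene and -0.26 to 0.090 without 1 replicate, and that of the second Catsper2 transcript was -0.16 to 0.33. The class difference of Catsperb was -14.9 points with bounds of 120 and 180 nt and -5.11 to 9.26 points without 1 replicate.

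With the replicate number as a block, 7 members had longer tails, 8 were higher in counts and 6 higher in the class. No share over all transcripts is given for the block either. The tail call of Catsperd (adjusted p = 0.0634) and the class call of its second transcript (adjusted p = 0.079) were the only member calls lost. Deviations of samples with 1 number correlated at -0.011, 0.077 and 0.016 for tails and 0.028, 0.24 and 0.069 for counts over 1827 transcripts, so the numbers were not taken as pairs. The study's methods give a common source of mice for the germ cell types, but no source used here ties the replicate numbers across them.

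Few P/D reads lay behind the tails of Catsper1, Catsper3, Catsper4, Catsperg1, Kcnu1 and Lrrc52, which limits their precision.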
